A study of Homo sapiens with 3 samples.

Results

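The RNA of 9 listed enzymes that make or use glutamine and glutamate was followed on 3 arrays of LoVo cells, an established human colorectal cancer line. The enzymes were chosen by gene symbol, with the values of these same arrays already known, so their differences are given as a description and no test was made. Of the 9, GLUL, GOT1, GOT2, OAT, PYCR1 and ALDH18A1 had a probe set that the array annotation names for them, which makes 6 of the 18417 genes measured. No single-gene probe set was named for GLS2, GLUD1 or GPT2, and these genes were not analysed here.

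The 3 cultures gave total RNA for 1 Affymetrix Human Gene 1.0 ST array each. LoVo 8R+ is the LoVo-R8 line grown with 8 μM irinotecan, LoVo 8R- is LoVo-R8 grown free of irinotecan, and parental LoVo is the line from which LoVo-R8 was derived by raising the irinotecan dose from 0.1 μM to 8 μM. Irinotecan is a camptothecin analogue that traps topoisomerase I on DNA. All cultures were described as grown in RPMI medium with serum, sodium pyruvate and L-glutamine, and their labels share a text on irinotecan treatment before RNA purification, so whether parental LoVo received the drug is unclear. No culture was repeated, so the values carry neither errors nor p-values, and precision is limited by the number of arrays. The authors deposited log2 levels made by the robust multichip average (RMA), and a difference is a subtraction of 2 such levels, counted here at 2-fold. The arrays had median levels of 6.94, 6.95 and 6.94 in LoVo 8R+, LoVo 8R- and parental LoVo. Between the LoVo-R8 arrays, 95% of genes differed by less than 0.53 on the log2 scale. Of 11 markers of colorectal epithelium, 10, 9 and 10 lay at or above the array median in LoVo 8R+, LoVo 8R- and parental LoVo, whereas 0 of 4 leukocyte and 0 of 4 endothelial markers did on any array, and 1, 2 and 1 of 6 fibroblast markers did. CDH1, LGALS4 and CEACAM5 were the 3 epithelial markers at least 2-fold lower on both LoVo-R8 arrays than in parental LoVo, with log2 differences between -2.01 and -3.06, and their part in the results below was not tested.

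Glutamine carries nitrogen in amide form, and glutamate is the product when that nitrogen is released. Glutamine synthetase joins ammonia to glutamate, glutaminases undo that step, and glutamate dehydrogenase and the transaminases pass glutamate on to alpha-ketoglutarate for the citric acid cycle. From glutamate, a further branch leads through pyrroline-5-carboxylate to proline and ornithine. Many colorectal cancer lines draw on glutamine from the medium as a source of carbon and nitrogen.

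The sequences just before the start sites of GLUL, OAT and GOT1 are shown because these genes had the main differences below. Each is the run of 250 bases before an annotated start in RefSeq (GRCh38.p14), read 5′ to 3′ on the gene's strand, here the minus strand for all of them. They lie at chr1:182391791-182392040 for GLUL, chr10:124418924-124419173 for OAT and chr10:99430625-99430874 for GOT1. Capitals mark matches, on either strand, to GGGCGG (the GC box) and to TGATGNAA (the core of the amino acid response element, bound by ATF4 with a C/EBP partner).
GLUL: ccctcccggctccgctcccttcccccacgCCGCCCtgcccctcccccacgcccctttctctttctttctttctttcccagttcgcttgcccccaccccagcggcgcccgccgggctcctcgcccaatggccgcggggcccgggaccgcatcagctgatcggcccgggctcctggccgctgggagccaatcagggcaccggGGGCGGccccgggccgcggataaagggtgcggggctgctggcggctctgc
OAT: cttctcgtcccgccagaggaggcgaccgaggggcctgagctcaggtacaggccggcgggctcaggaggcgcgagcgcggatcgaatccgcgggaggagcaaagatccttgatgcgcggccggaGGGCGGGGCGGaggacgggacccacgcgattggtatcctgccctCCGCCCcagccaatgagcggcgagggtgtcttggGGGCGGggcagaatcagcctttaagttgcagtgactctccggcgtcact
GOT1: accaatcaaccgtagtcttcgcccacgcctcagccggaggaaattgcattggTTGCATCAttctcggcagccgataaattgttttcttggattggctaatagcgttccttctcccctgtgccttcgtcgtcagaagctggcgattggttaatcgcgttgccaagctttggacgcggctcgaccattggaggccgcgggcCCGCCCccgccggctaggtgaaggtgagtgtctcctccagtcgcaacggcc
The GLUL run shown held 2 GC boxes. So did a second GLUL run, before another annotated start (chr1:182391342-182391591), which is not shown. The OAT run held 4 GC boxes, of which the first 2 overlap by 1 base. The GOT1 run held 1 GC box and 1 response element core, TTGCATCA on the strand shown, which begins 198 bases before the start. Of all 35116 RefSeq runs of this length, 42.6% held a GC box and 3.14% the core. Such matches describe letters only and do not show that a factor binds.

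Glutamine synthetase RNA differed most from parental LoVo among the enzymes, on either of its probe sets. GLUL, which encodes the enzyme that makes glutamine, had a level of 7.02 in LoVo 8R+, 6.50 in LoVo 8R- and 11.18 in parental LoVo on its brighter probe set. The LoVo-R8 arrays were both near or below the array median, and the parental array lay far above it. Relative to parental LoVo, GLUL was 17.9-fold lower in LoVo 8R+ (log2 difference -4.16) and 25.7-fold lower in LoVo 8R- (-4.68). Counted from the lowest difference up, GLUL was number 9 of 18417 genes in LoVo 8R+ and number 6 in LoVo 8R-. This set was taken for its higher mean over the 3 arrays, which it owes to parental LoVo (11.18, against 9.02 on the other set). In LoVo 8R- the other set was the higher one (7.30 against 6.50). The sizes and ranks given here therefore depend on a choice made through the parental level.

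A second probe set named for GLUL had the same direction with a smaller size. Its levels were 6.90 in LoVo 8R+, 7.30 in LoVo 8R- and 9.02 in parental LoVo. On this probe set GLUL was 4.37-fold lower in LoVo 8R+ (log2 difference -2.13) and 3.30-fold lower in LoVo 8R- (-1.72), again relative to parental LoVo. The sets ordered the LoVo-R8 arrays in opposite ways, since LoVo 8R+ minus LoVo 8R- was 0.52 on the brighter set and -0.40 on the dimmer one. Thus the arrays give no single order of LoVo 8R+ and LoVo 8R- for GLUL. The 20 nearest single-gene identifiers of the dimmer set all name genes of chromosome 1, where GLUL lies. Those of the brighter set all name genes of chromosome 9, and 15 of them start within 1 Mb of GLULP4, the GLUL pseudogene that RefSeq places there. RefSeq lists 6 pseudogenes under the GLUL name in all. Probe sequences were not used here, so the size of the GLUL difference is uncertain and the share of each copy in the signal was not tested.

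**Figure D1:**
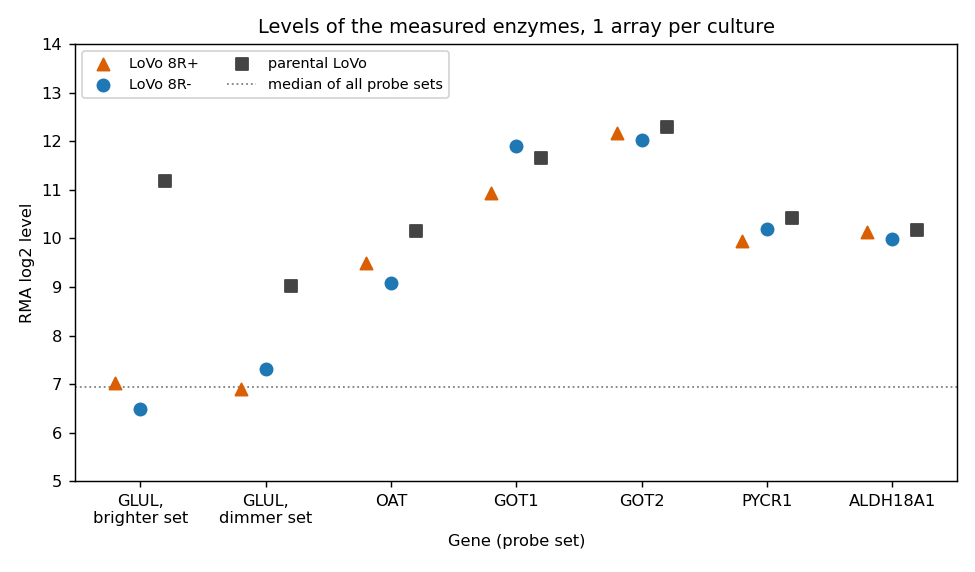
RMA log2 level (vertical axis) of each probe set of the 6 measured enzymes (horizontal axis) in LoVo 8R+ (triangles), LoVo 8R- (circles) and parental LoVo (squares), 1 array each, with the median of all probe sets as a dotted line. Both GLUL sets lie well below their parental levels of 11.18 and 9.02 on the LoVo-R8 arrays, and GOT1 has a LoVo 8R+ value of 10.93, below both other arrays.

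The genes whose pair of differences from parental LoVo lay nearest to that of the brighter GLUL set were RAB25, CD200, NFIB, TPTEP1 and S100A14. Their Euclidean distances from GLUL, over the LoVo 8R+ and LoVo 8R- differences of 3 arrays, ran from 0.41 for RAB25 to 0.77 for S100A14. RAB25, an epithelial small GTPase, had levels of 6.11 in LoVo 8R+, 5.95 in LoVo 8R- and 10.68 in parental LoVo. S100A14, a calcium-binding protein, had 7.26 in LoVo 8R+, 7.21 in LoVo 8R- and 11.17 in parental LoVo. All 5 had high parental levels and LoVo-R8 levels near or below the array median. This largely follows from choosing genes with differences as large as those of GLUL.

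Ornithine aminotransferase was the other enzyme past 2-fold. OAT, whose mitochondrial enzyme links ornithine to pyrroline-5-carboxylate and glutamate, had a level of 9.49 in LoVo 8R+, 9.09 in LoVo 8R- and 10.15 in parental LoVo. It was lower on both LoVo-R8 arrays, by 36.7% in LoVo 8R+ and by 52.2% in LoVo 8R-. The log2 differences from parental LoVo were -0.66 and -1.07, so that OAT reached 2-fold only without irinotecan, and with loess correction (-0.98) or repeated quantile normalization (-0.98) it fell just short there too.

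The proline branch beside OAT was nearer to parental levels. PYCR1 encodes a mitochondrial pyrroline-5-carboxylate reductase that completes proline, and its level was 9.94 in LoVo 8R+, 10.20 in LoVo 8R- and 10.42 in parental LoVo. The differences from parental LoVo were -0.48 and -0.22. ALDH18A1, which encodes the enzyme that turns glutamate into pyrroline-5-carboxylate, had 10.13 in LoVo 8R+, 9.99 in LoVo 8R- and 10.17 in parental LoVo. Both genes had their highest value in parental LoVo, and neither came near 2-fold. The ALDH18A1 differences were -0.05 with and -0.18 without irinotecan. Those of both genes were within the 0.53 that held 95% of genes between the LoVo-R8 arrays, which is the spread of another comparison.

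The aspartate transaminases, which exchange amino groups between glutamate and aspartate, differed from each other. The cytosolic enzyme gene GOT1 had a level of 10.93 in LoVo 8R+, 11.89 in LoVo 8R- and 11.65 in parental LoVo. LoVo 8R+ was the low array, and LoVo 8R- was slightly above parental LoVo. Set against parental LoVo, GOT1 was 39.1% lower in LoVo 8R+ (log2 difference -0.72), and in LoVo 8R- it was at 1.18-fold (0.24). The mitochondrial enzyme gene GOT2 had 12.16 in LoVo 8R+, 12.01 in LoVo 8R- and 12.29 in parental LoVo. Its differences from parental LoVo, -0.13 and -0.27, were small on both arrays. RefSeq lists 7 pseudogenes under the GOT2 name and 1 under the OAT name that may share probe sequence with these genes, and none under the GOT1 name. Copies under other names were not searched for.

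In all, 1 of the 6 measured enzymes, GLUL, was at least 2-fold lower in LoVo 8R+ than in parental LoVo, where 2.3% of all genes were. In LoVo 8R-, 2 of 6 were, GLUL and OAT, where 2.78% of all genes were. None was 2-fold higher on either array, where 2.25% of all genes were with irinotecan and 1.64% without it. The choice of the enzymes used these differences, so nothing is read from the shares. The median difference of the 6 from parental LoVo was -0.57 in LoVo 8R+ and -0.24 in LoVo 8R-, beside medians of 0 over all genes. Both differences were taken from the single parental array, which they share. All 6 were below their parental level in LoVo 8R+, and 5 of 6 in LoVo 8R-, with GOT1 the exception. In LoVo 8R+ the differences of ALDH18A1 (-0.05) and GOT2 (-0.13) were small. Nothing is read from these counts of direction either, for the same reason of choice.

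**Figure D2:**
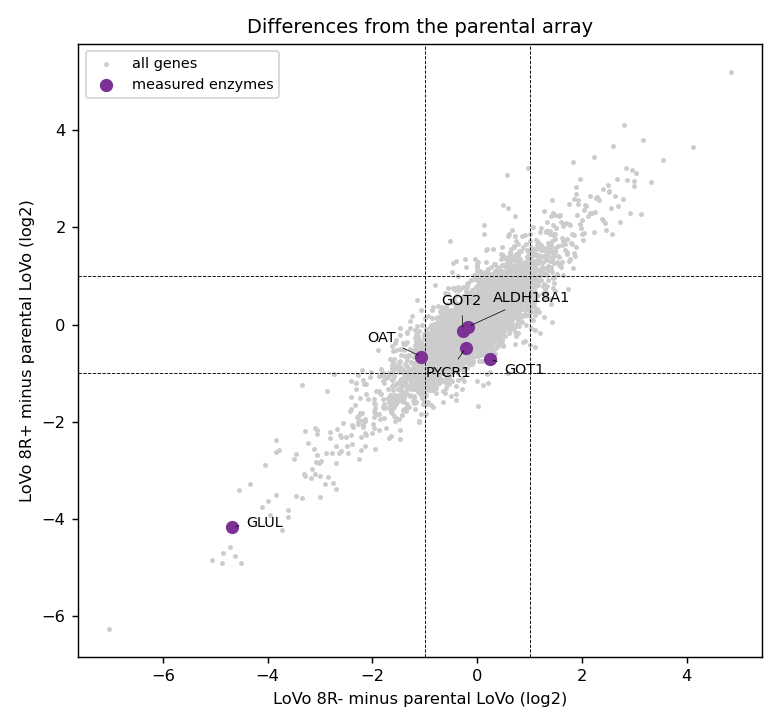
Difference from the parental array on the log2 scale, for LoVo 8R+ on the vertical and LoVo 8R- on the horizontal axis, with a grey point for each of 18417 genes, purple points for the 6 measured enzymes and dashed lines at 2-fold. GLUL, drawn with its brighter probe set, lies at -4.16 and -4.68, far from the other enzymes. Its dimmer set, not drawn, had -2.13 and -1.72. OAT lies on the 2-fold line of LoVo 8R-.

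The comparison of LoVo 8R+ with LoVo 8R- sets 1 resistant culture with the drug against 1 without it. The drug cannot be told apart here from other differences between the cultures or their arrays. GOT1 stood out among the enzymes, with a level 48.5% lower in LoVo 8R+ than in LoVo 8R- (log2 difference -0.96). It was number 27 of 18417 genes from the lowest difference up, and 99.2% of genes had a smaller absolute difference between these arrays. GOT1 was just short of 2-fold, and with repeated quantile normalization it passed it (-1.002). None of the 6 enzymes passed 2-fold in either direction as deposited, where 0.114% of all genes were lower and 0.527% higher. OAT (0.41), GOT2 (0.15) and ALDH18A1 (0.13) were above their LoVo 8R- levels in LoVo 8R+, and PYCR1 (-0.26) was below. The median of the 6 was 0.14, beside 0 over all genes, and it was -0.06 when GLUL was taken from its dimmer probe set.

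Genes of neighbouring roles were described from lists that were written with earlier results of these arrays known. Of 27 other measured enzymes that use or form glutamine or glutamate, CTPS1 alone was at least 2-fold lower than parental LoVo, in LoVo 8R-, where 2.78% of all genes were. None was 2-fold higher on either array, where 2.25% of all genes were in LoVo 8R+ and 1.64% in LoVo 8R-. CTPS1, which makes CTP with nitrogen from glutamine, had a level of 8.99 in LoVo 8R+, 8.79 in LoVo 8R- and 9.83 in parental LoVo. Its differences were -0.84 and -1.04, the second short of 2-fold with loess correction (-0.96) or repeated quantile normalization (-0.95). The median of these 27 was -0.04 in LoVo 8R+ and 0.00 in LoVo 8R-. GPT, the cytosolic alanine transaminase gene, had differences of 0.08 and 0.23 from parental LoVo, at levels near the array median. None of 12 proline and ornithine enzymes passed 2-fold on either array. PYCR3, a cytosolic reductase of proline synthesis, had -0.09 with irinotecan and -0.03 without it. The polyamine enzyme gene ODC1, which uses ornithine, came nearest on the low side in LoVo 8R-, at -0.88, with -0.90 in LoVo 8R+, and the collagen prolyl hydroxylase gene P4HA1 nearest on the high side in LoVo 8R+, at 0.93.

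Of 14 genes of the malate-aspartate shuttle and the entry of glutamate carbon into the citric acid cycle, IDH3A was at least 2-fold lower in LoVo 8R+, where 2.3% of all genes were, and IDH3A and OGDH were in LoVo 8R-, where 2.78% were. IDH3A, a subunit of the dehydrogenase that forms alpha-ketoglutarate, had a level of 10.92 in LoVo 8R+, 10.69 in LoVo 8R- and 12.13 in parental LoVo. OGDH, a subunit of the complex that consumes alpha-ketoglutarate, had 10.03 in LoVo 8R+, 9.73 in LoVo 8R- and 10.88 in parental LoVo. These genes act on both sides of alpha-ketoglutarate, and both had their highest level in parental LoVo. The shuttle genes that work beside GOT1 and GOT2, namely MDH1, MDH2, SLC25A11, SLC25A12 and SLC25A13, lay between -0.40 and 0.39 on both arrays.

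Of 16 measured carriers of glutamine, glutamate and related amino acids, 10 were below and 5 above their parental level in LoVo 8R+, with a median difference of -0.21, and 5 were below and 9 above it in LoVo 8R-, with a median of 0.11. At least 2-fold higher than parental LoVo were 4 in LoVo 8R+ (2.25% of all genes) and 3 in LoVo 8R- (1.64%), and at least 2-fold lower were 1 in LoVo 8R+ (2.3%) and 0 in LoVo 8R- (2.78%). SLC7A8, a light chain for neutral amino acids, had a level of 10.52 in LoVo 8R+, 10.29 in LoVo 8R- and 7.79 in parental LoVo. The glutamate transporter gene SLC1A3 had 8.71 in LoVo 8R+, 8.18 in LoVo 8R- and 6.78 in parental LoVo. Both were clearly above the parental array, with SLC7A8 at differences of 2.74 and 2.51 and SLC1A3 at 1.93 and 1.40. SLC7A7, another light chain, had differences of 1.58 and 1.19, and SLC1A1, a transporter of glutamate and aspartate, had 1.44 and 0.97, the second past 2-fold with loess correction (1.03) or repeated quantile normalization (1.04). SLC7A11, which exports glutamate in exchange for cystine, was the lower one, with levels of 9.58 in LoVo 8R+, 11.00 in LoVo 8R- and 10.79 in parental LoVo. Like GOT1, SLC7A11 was low only in LoVo 8R+.

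**Figure D3:**
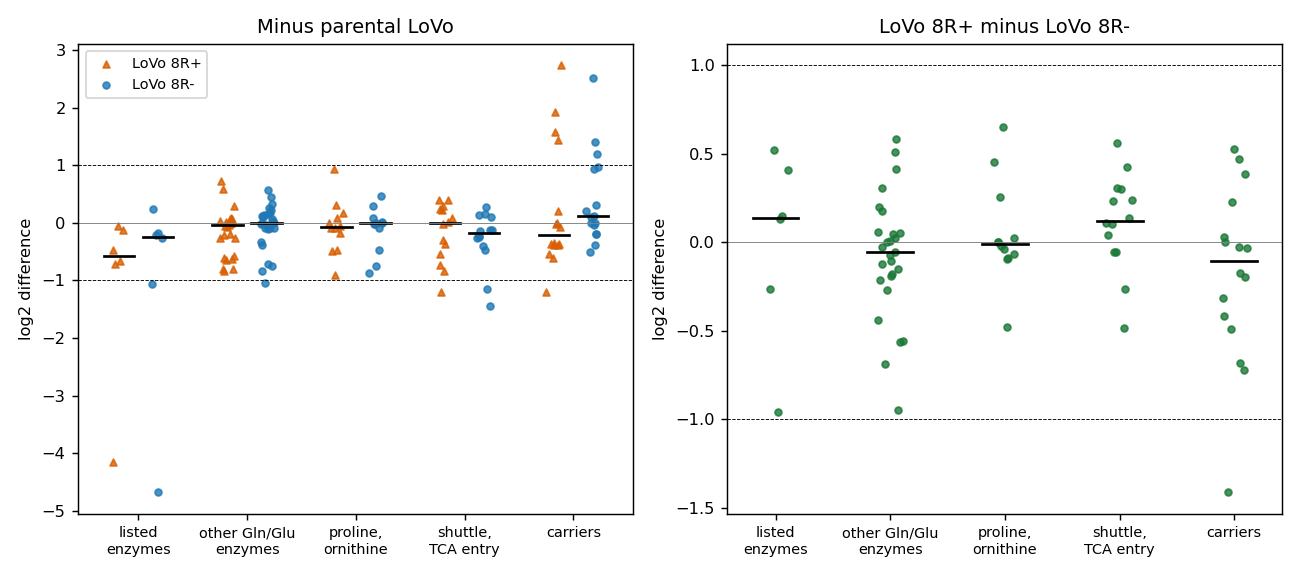
Log2 differences (vertical axes) of the 6 measured enzymes and of 4 lists of neighbouring roles (horizontal axes), from parental LoVo on the left in LoVo 8R+ (triangles) and LoVo 8R- (circles), and as LoVo 8R+ minus LoVo 8R- on the right, with 1 point per gene. Black bars are medians, and dashes mark 2-fold. GLUL, drawn with its brighter probe set, is the low point of the enzymes on the left, and SLC7A8 is the high point of the carriers. GOT1 (-0.96) and SLC7A11 (-1.41) are the low points of their lists on the right.

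Over these 4 lists and another of 8 measured regulators, 38 of 77 genes were below and 35 above their LoVo 8R- level in LoVo 8R+. Of all 18417 genes, 8916 were below and 7265 above. Of the 77, 8 were lower in LoVo 8R+ than in LoVo 8R- by at least 0.53 on the log2 scale, where 1.45% of all genes were, and 4 were higher, where 3.55% of all genes were. Since the lists were written with these values known, nothing is read from the shares. The median difference over the 14 shuttle and citric acid cycle genes was 0.12, with 10 above 0, beside a median of 0 and 7265 of 18417 above 0 over all genes. The 8, named after their values were seen, were the asparagine synthetase gene ASNS (-0.95), GFPT1 (-0.69), the serine pathway transaminase gene PSAT1 (-0.56), BCAT1 (-0.56), the glutamine carriers SLC1A5 (-0.69) and SLC38A2 (-0.72), SLC7A11 (-1.41) and FOXO3 (-0.59). The 4 were BCAT2 (0.58), P4HA2 (0.65), IDH2 (0.56) and LEF1 (0.64). ASNS, which takes its nitrogen from glutamine, had a level of 9.76 in LoVo 8R+, 10.71 in LoVo 8R- and 10.38 in parental LoVo, the same order of arrays as GOT1. PSAT1 had 11.21 in LoVo 8R+, 11.77 in LoVo 8R- and 11.21 in parental LoVo. ATF4, a transcription factor of the amino acid response, had 10.53 in LoVo 8R+, 10.96 in LoVo 8R- and 11.01 in parental LoVo, a difference of -0.43 between the LoVo-R8 arrays.

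The response element core found before GOT1 also lay before ASNS, BCAT1, SLC1A5, SLC1A3 and SLC25A11. These are 6 of the 71 enzymes and list genes that have a run (8.45%), beside 3.89% of all genes with one. In LoVo 8R+ against LoVo 8R-, GOT1, ASNS, BCAT1 and SLC1A5 were lower, and SLC1A3 (0.53, just under the size used above) and SLC25A11 (0.30) were higher. The values of these 6 genes ran from -0.96 to 0.53. Of the other list genes past 0.53, SLC7A11 (-1.41), SLC38A2, GFPT1, PSAT1 and FOXO3 were lower, and BCAT2, P4HA2, IDH2 and LEF1 higher. None of them was among the 6, and whether each has a run is not given here. The lists were written with the results known, and a part of the element in any difference was not tested.

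Regulators known for these genes were within 2-fold as deposited. MYC, a transcription factor that promotes glutamine use in several cancers, stood above parental LoVo by 0.54 in LoVo 8R+ and by 0.53 in LoVo 8R-. GLUL is a target of beta-catenin in liver, and of that pathway CTNNB1 had -0.05 and -0.19, TCF7L2 0.96 and 0.69 (1.003 in LoVo 8R+ with repeated quantile normalization), and LEF1 0.82 and 0.19. FOXO3, which is also known to induce GLUL, had -0.19 with irinotecan and 0.41 without it. The cereblon gene CRBN, whose ligase degrades glutamine synthetase protein, had -0.93 and -0.62. No TCF/LEF match (CTTTGAT, either strand) lay in the 8 runs of the 7 listed enzymes that have one, and 2.26% of all runs held one. Since most runs hold no match, nothing is read from its absence here.

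The measured neighbours of each enzyme gene on its chromosome had median differences near 0. For GLUL, on chromosome 1, the 10 nearest measured genes had median differences of 0.00 (LoVo 8R+) and 0.08 (LoVo 8R-) from parental LoVo. GLUL itself had -2.13 and -1.72 on the probe set whose nearest identifiers name chromosome 1 genes. The lowest neighbour was RGS16, with -0.42 and -0.82, and MR1, an antigen-presenting molecule, passed 2-fold upward on each LoVo-R8 array (1.75 and 2.02). For OAT, the medians were 0.05 and 0.01 and no neighbour was past 2-fold. For GOT1, the medians were -0.01 and 0.00, and ENTPD7, a nucleotide hydrolase gene, was lower on both arrays (-1.38 and -1.87). The medians around GOT2, PYCR1 and ALDH18A1 lay between -0.07 and 0.02. Single neighbours were as low as their enzyme gene or lower, such as PCYT2 beside PYCR1 (-0.61 and -0.68) and ENTPD7 beside GOT1. Chromosome 10 carries OAT, GOT1, ALDH18A1 and also GLUD1, and the 3 of these that were measured had unlike values.

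**Figure D4:**
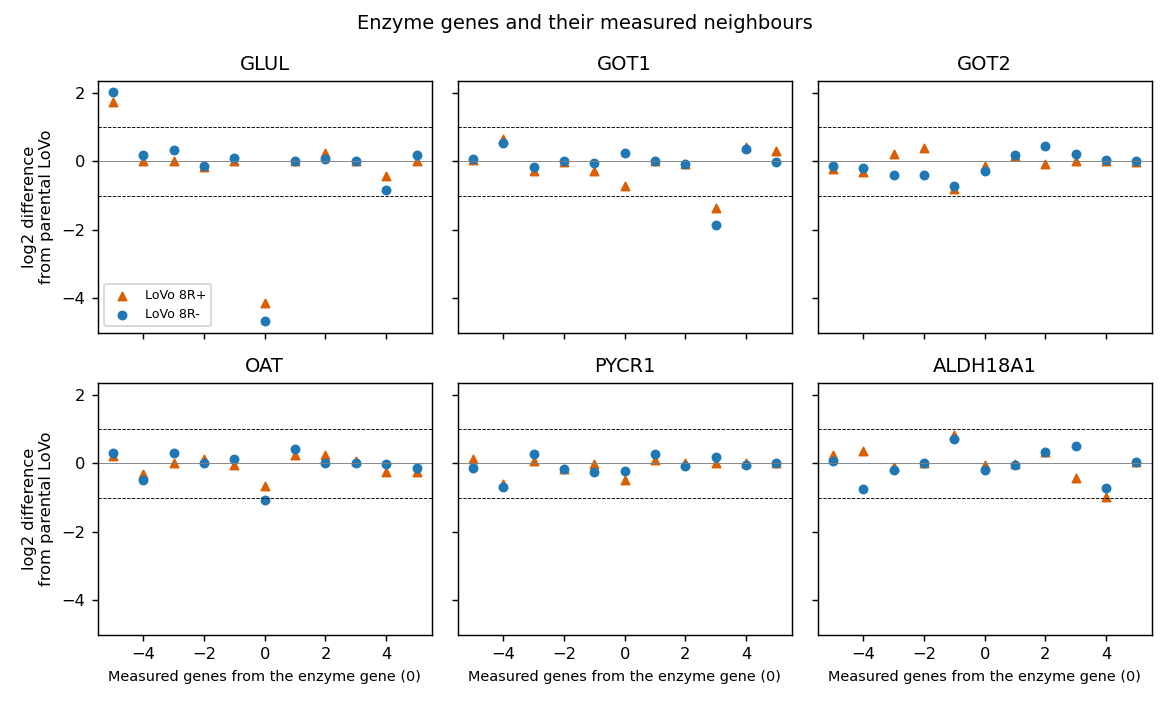
Log2 difference from parental LoVo (vertical axes) of each measured enzyme gene, at 0, and of the 5 measured genes on either side of it in chromosomal order (horizontal axes), in LoVo 8R+ (triangles) and LoVo 8R- (circles), with dashed lines at 2-fold. GLUL, drawn at its own locus on chromosome 1 but with the values of its brighter probe set (-4.16 and -4.68), whose nearest identifiers name chromosome 9 genes, has neighbours with medians of 0.00 and 0.08.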

How the data were processed

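Total RNA (300 ng per sample) from LoVo 8R+, LoVo 8R- and parental LoVo was hybridised by the authors to Affymetrix Human Gene 1.0 ST arrays, 1 per culture. The deposited values are log2 levels of 33297 probe sets, which the authors made by RMA with background correction, quantile normalization and median polish. Affymetrix Expression Console 1.1 is given in the submitters' processing notes, and R with Bioconductor in the methods. Median polish over so few arrays can return equal values on separate arrays.

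Samples were grouped by their labels. A gene was represented by its brightest single-gene probe set in the platform annotation (19460 sets, 18417 genes), judged by the mean level over the 3 arrays. Probe sets naming several genes (1754) or none (12083) were not used. Log2 levels were subtracted and counted at 2-fold. No test was possible without replicates. The enzymes and lists were chosen with earlier results of these data known.

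All listed enzymes were named. From each list, genes past 2-fold from parental LoVo on either array were named, with GPT, PYCR3, ASNS and PSAT1 whatever their value. Some further listed genes are not reported here. Also named were the 5 genes nearest to GLUL and, of 5 neighbours on each side, those past 2-fold on both arrays. Other genes were named after their values were seen. RefSeq (GRCh38.p14) gave gene order, pseudogenes and sequences.

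Alternatives were 1.5-fold and 3-fold thresholds, median centring, loess correction (span 0.3, 3 iterations), repeated quantile normalization, the mean over probe sets and a filter at the array median. The calculation was tested on simulated data. Python 3.11.15, numpy 2.4.6, pandas 2.3.3, statsmodels 0.14.6 and matplotlib 3.10.9 were used.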

Additional observations from a re-analysis of the deposited data

How the results depend on the processing

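The direction of every enzyme in every comparison was kept under median centring, loess correction, repeated quantile normalization and the mean over probe sets. With that mean, however, GLUL in LoVo 8R+ minus LoVo 8R- went from 0.52 to only 0.06. The number at least 2-fold lower than parental LoVo in LoVo 8R+ was 1 and became 3 at 1.5-fold. In LoVo 8R- it was 2 and became 1 at 3-fold, and also with repeated quantile normalization or loess correction, where OAT fell just short (-0.98 with either). Between LoVo 8R+ and LoVo 8R-, the number lower was 0 and became 1 at 1.5-fold and with repeated quantile normalization, which is GOT1 in both. At least 2-fold lower in LoVo 8R- than parental LoVo were 466 of 18417 genes with repeated quantile normalization, and 503 with loess correction. Between the LoVo-R8 arrays, 27 of 18417 genes were lower with repeated quantile normalization. Shares over all genes at 1.5-fold and 3-fold were not computed, so nothing is read from those counts. Taking the mean of the GLUL probe sets moved its difference from parental LoVo to -3.14 with irinotecan and -3.20 without. The dimmer GLUL probe set alone, an alternative chosen after seeing the data, changed no count. It reversed GLUL itself in LoVo 8R+ minus LoVo 8R- (-0.40) and turned the median of that comparison to -0.065. A difference was called unchanged when it kept its side of 2-fold, and a median when it kept its sign and moved by less than 0.53. A count was called unchanged when it stayed at 0 or within a ratio of 1.5. No paired analysis was possible because each group has 1 array. Signals near or below the array median, such as GLUL in the LoVo-R8 cultures, limit the size of a difference.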
